A study of Mus musculus with 23 samples.

Results

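Gene expression was compared between the gastrocnemius of old male mice that had trained by high-intensity intermittent training (HIIT) and that of old sedentary mice. The comparison takes 8 of the 23 one-colour arrays of the series, 4 of old HIIT and 4 of old control muscle, chosen by the group that the sample titles give. All 8 mice were C57BL/6J males, entered at 24 months and sampled at 25 months of age, housed singly with free access to chow. HIIT mice ran every day for 4 weeks on a treadmill, in 3 bouts lasting 2 min each at 27 m/min that were separated by 1 min at 5 m/min. Control mice were brought daily to the same room and placed on a treadmill that was switched off. Muscle was frozen after 12 h of rest, and 200 ng of total RNA from each animal was labelled for 1 array. Old and adult mice that ran continuously at moderate intensity (MICT), adult HIIT and adult control mice serve for comparison. The adult mice were C57BL/6J males entered at 5 months and sampled at 6 months of age, with the same protocols, and gave 4 arrays for HIIT, 4 for controls and 3 for MICT. The labels say that mice were randomized and give no pairing between groups. They name no genotype, transgene or drug for any group.

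Short, hard running draws mostly on glycogen and recruits fast fibres, while rest, fasting and glucocorticoids move muscle towards fat oxidation and protein breakdown. In that second state FOXO transcription factors, the glucocorticoid receptor and fatty-acid-sensing PPAR receptors raise genes such as Pdk4, which closes the entry of pyruvate into the mitochondrial tricarboxylic acid (TCA) cycle, and the ubiquitin ligase genes Fbxo32 and Trim63. Old muscle also holds immune cells, fat, nerve and connective tissue, whose transcripts reach the array in whole-tissue RNA. In such RNA, fewer cells of a type and less RNA per cell cannot be told apart.

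Levels below are log2 processed signals minus the array's 75th percentile, so a level of 0 stands for that percentile. A feature is 1 probe for each gene symbol, or for each transcript or interval name without a symbol, and 23707 features were tested with limma over the 6 groups of the series. A feature was called where the Benjamini-Hochberg adjusted p was under 0.05. Values after ± are limma's standard error of a log2 difference, with 4 arrays in each group, and probes of different genes are not compared in level.

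Between 47.2% and 58.9% of gene spots were well above background on each of the 8 arrays, and no spot was saturated. The 4 old HIIT arrays lay on slide 3 together with the old MICT mice, and the 4 old control arrays lay on slide 2 together with adult MICT arrays. Training and slide therefore cannot be told apart in this comparison. All 10 measured muscle fibre markers were well above background on all 8 arrays, with a median difference of 0.28 (-0.06 without old controls 1 and 2). Several arrays stood apart from the rest of their group in transcripts of other cells. B and plasma cell, T and NK cell and mast cell markers were highest in old controls 1 and 2, the first 2 of these lists were also high in old HIIT 2, and neutrophil and marrow markers were highest in old control 4 and old HIIT 1.

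Of the 23707 features, 103 (0.434%) were called, 101 (0.426%) of them higher and 2 (0.00844%) lower in old HIIT. Before adjustment 3685 features (15.5%) had p under 0.05, and 60.2% of all features had a positive difference, with a median of 0.075. The called risers were dim. Their median level over the 8 arrays was -3.73, against -0.43 for all features, and 52 of the 101 were not above background on any old control array. Only 33 of the 101 carried a gene symbol, and 46 were intervals named by their position in the mm9 annotation of the array. Such intervals made up 2906 of the features tested, and 47 of them (1.62%) were called, against 34 of 15466 features with a symbol (0.22%) and 69 of 8241 without one (0.837%). Among the features well above background on all 8 arrays 25 of 18453 (0.135%) were called. The count depended on the arrays and the fit: it was 0 with normexp background correction and 0 when the 8 arrays were fitted without the other groups, and it ran from 11 without old HIIT 1 to 833 without old control 3.

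The called gene with the largest rise was Cyp2c67, a cytochrome P450 of the Cyp2c cluster. Its level was -3.23, -3.15, -3.31 and -1.39 on the 4 old HIIT arrays and -4.84, -5.59, -5.80 and -6.42 on the 4 old controls. Every HIIT array lay above every control array, and no control array was above background. The difference was 2.89 ± 0.37 with limma's adjusted p = 0.00166, and set against the control arrays' background limit Cyp2c67 was at least 3.76-fold higher. The bound takes each control array at the lowest signal called above background there, or at the feature's own level where that is higher. It is used below wherever a value is given as "at least". A probe above that signal can still be uncalled, as Krt82 was on old control 3, so the bound is approximate. Cyp2c67 was called with each of the 8 arrays left out in turn.

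Gpr15, a G protein-coupled receptor that guides T cells to the gut, read -3.23, -3.19, -3.37 and -3.54 after HIIT and -4.35, -5.29, -5.70 and -6.31 in controls. It was at least 2.47-fold higher (2.08 ± 0.36, limma adjusted p = 0.0140). Krt82, a hair keratin, read between -3.01 and -2.72 on the HIIT arrays and between -6.31 and -3.90 on the controls. It was at least 3.0-fold higher (2.00 ± 0.38, limma adjusted p = 0.0242). S100a5, a calcium-binding S100 protein, was above background on all HIIT arrays and on 2 controls. Its levels ran from -2.39 to -1.16 after HIIT and from -4.81 to -3.17 in controls, a difference of 1.94 ± 0.39 (limma adjusted p = 0.0273).

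Other risers that the naming rule took were genes better known from tissues other than muscle. Nkx1-2, a homeobox factor, differed by 1.66 and was at least 1.90-fold higher. Antxrl, Tcl1b2, Olfr123 and Olfr1339 were at least 3.21-fold, 1.64-fold, 2.15-fold and 1.69-fold higher. Cyp4a12b and the noncoding transcript 4930463O16Rik were above background on 1 HIIT array each, and their bounds were 1.10-fold and 1.13-fold. Of 100 olfactory receptor genes tested, 6 were called (6%), against 0.22% of all features with a symbol, and the group was singled out after its values were seen. These shares are not matched for signal. Olfr1339, Olfr123, Olfr30 and Olfr1396 were above background on no old control array. They could pass the filter for probes above background only through arrays of other groups. The share of 6% therefore depends in part on that filter, and it describes the called genes and tests nothing. Among features well above background on all 8 arrays 0.135% were called, against 0.434% of all features. In the list of 24 measured cytochrome P450 genes, which holds Cyp2c67 but not Cyp4a12b, Cyp2c67 was the member called, 20 differences were positive with a median of 0.49, and 12 of 24 genes were well above background on all 8 arrays. Cyp2d22, the next by p, was above background on 2 HIIT arrays and no control, at least 1.78-fold higher (1.36 ± 0.42, limma adjusted p = 0.155). Apoc3, the apolipoprotein that slows triglyceride clearance, was called in the hepatocyte list at 1.13 ± 0.22 (limma adjusted p = 0.0244), but its other probe differed by 0.06. Of the 6 measured members of that list 3 were positive, with a median of -0.20.

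**Figure D1:**
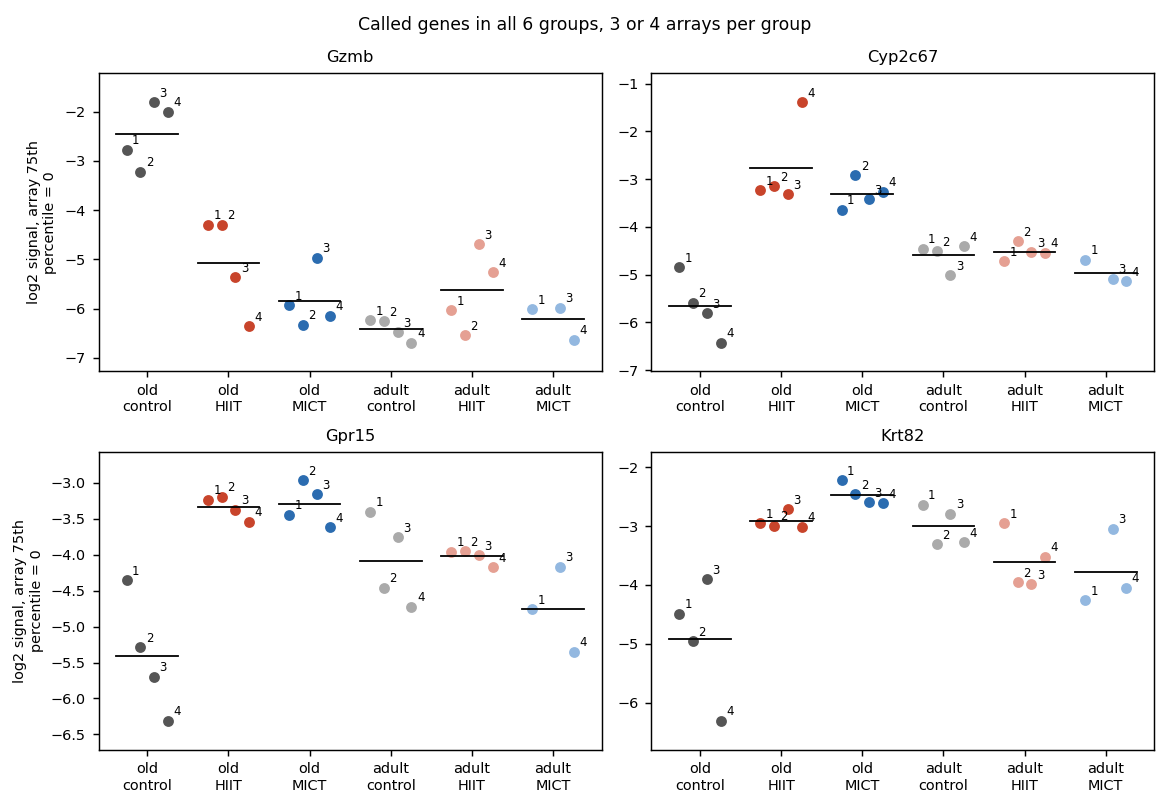
Levels of 4 called genes (log2 processed signal, with each array's 75th percentile at 0) in the 6 groups. Points are single arrays with their replicate number, and black lines are group means. Cyp2c67, Gpr15 and Krt82 are lower in old controls than in old HIIT and in old MICT, and Gzmb is higher in old controls than in all other groups.

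Features without a symbol gave the smallest p. The interval on mm9 chromosome 4 from 140609589 to 140614789 read -1.57, -2.84, -2.65 and -2.23 after HIIT and between -4.96 and -4.82 in the 4 controls. It was at least 5.09-fold higher (2.55 ± 0.29, limma adjusted p = 0.000566). The interval on chromosome 13 from 75921214 to 75923024 was at least 2.60-fold higher (1.64 ± 0.26). The interval on chromosome 5 from 113772200 to 113772326 was above background on all 8 arrays. It read -2.26, -2.51, -2.42 and -2.12 after HIIT and -3.42, -3.44, -3.33 and -3.73 in controls, a difference of 1.15 ± 0.18 (limma adjusted p = 0.00904). These 3 intervals were also called with each of the 8 arrays left out in turn. The files do not name the transcripts they come from.

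The 101 risers were chosen by their contrast between old HIIT and old control, so their levels in other groups describe them and test nothing. On the 4 old control arrays the median level of the 101 ran from -4.64 to -4.12, and on the 4 old HIIT arrays from -3.25 to -2.88. It ran from -3.20 to -2.96 in old MICT, from -3.63 to -3.07 in adult controls and from -3.80 to -3.03 in adult HIIT. On the 3 arrays of adult MICT, which shared slide 2 with the old controls, it ran from -3.74 to -3.67. All 101 had a higher mean in adult controls than in old controls, and for 39 of the 101 the old HIIT mean exceeded that of old MICT. The old controls were the lowest group. The adult MICT arrays of the same slide lay below every array of old HIIT, old MICT and adult controls. Adult HIIT 3, at -3.80, lay lower than these adult MICT arrays. The part of slide in this result was not tested.

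**Figure D2:**
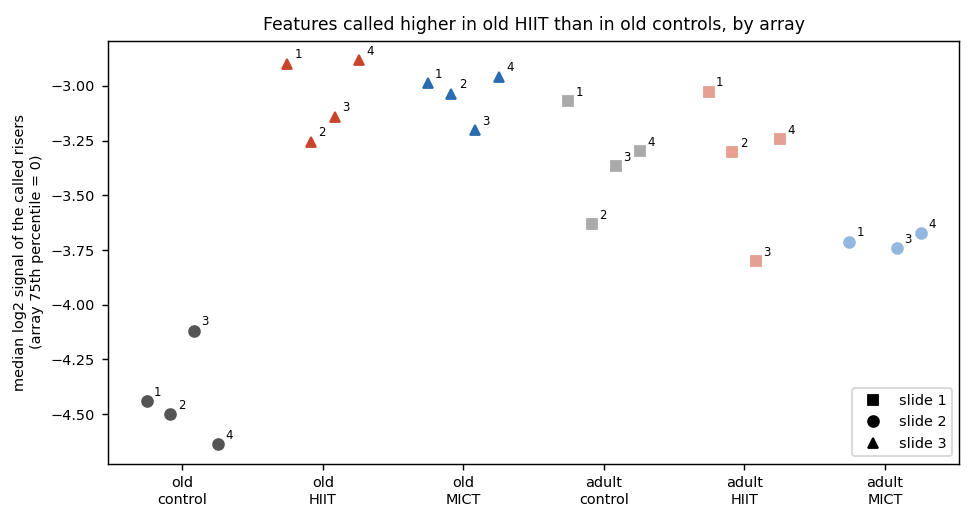
Median level over the 101 called risers (log2 processed signal, array 75th percentile at 0), for each of the 23 arrays. Symbols give the slide and numbers the replicate. Old controls lie between -4.64 and -4.12, adult MICT on the same slide between -3.74 and -3.67, and old HIIT between -3.25 and -2.88.

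Gzmb, the granzyme that cytotoxic T cells and NK cells release into their targets, was the only called faller with a symbol. It read -4.29, -4.30, -5.36 and -6.36 on the old HIIT arrays and -2.77, -3.22, -1.80 and -2.0 on the old controls. All 4 control arrays were above background, 1 of 4 HIIT arrays was, and the groups did not overlap. The difference was -2.63 ± 0.49 (limma adjusted p = 0.0205), and Gzmb was called in 5 of the 8 fits that left out 1 array. Its highest levels were in old controls 3 and 4, while the T and NK cell score and the B cell score were highest in old controls 1 and 2. No old MICT array was above background for Gzmb. The other called faller was an interval without a symbol.

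The genes that fatty acids induce in muscle were high in 2 of the 4 HIIT mice. Pdk4 read 8.68 and 7.39 in old HIIT 1 and 2, 4.93 and 4.97 in old HIIT 3 and 4, and 2.85, 3.83, 4.57 and 3.92 in the 4 controls. Every HIIT array was above every control array, but HIIT 3 and 4 lay close to control 3. The difference was 2.70 ± 0.76 with limma's adjusted p = 0.120, which did not pass. Acot2, which releases fatty acids from coenzyme A inside mitochondria, read 2.66, 1.08, -0.37 and -0.35 after HIIT and between -1.51 and -0.73 in controls (1.83 ± 0.56, limma adjusted p = 0.146). Ucp3, the muscle uncoupling protein, read 2.54, 1.10, -0.17 and -0.12 after HIIT and between -1.74 and -0.23 in controls (1.73 ± 0.76), while its other probe differed by 0.46. Acot1, the cytosolic counterpart of Acot2, read 4.19, 2.75, 1.06 and 1.83 after HIIT, and old control 2 at 2.44 stood above 2 of these. Slc25a34, a mitochondrial carrier gene outside the list, read 4.76, 3.31, 1.68 and 2.20 after HIIT against -1.02, 0.25, 1.88 and 1.68 in controls.

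Of 20 fatty-acid-induced genes 16 had a positive difference with a median of 0.56, and none was called. An unadjusted limma p under 0.05 was found for 11 of the 20, and for 15.5% of all features. Old HIIT 1 and 2 were the highest pair for 10 of the 20 (50%), against 13.9% of the genes over all lists. By list score old control 3, at 0.34, lay above old HIIT 3, at 0.16. Of 33 genes of fatty acid uptake and oxidation 29 were positive with a median of 0.44. Hadha, of the mitochondrial trifunctional protein, differed by 0.79 ± 0.25, and the fatty acid transporter gene Slc27a1 by 0.85 ± 0.27 (limma adjusted p = 0.158 and 0.154). Old HIIT 1 was the highest of the 8 arrays for 28 of the 33 genes of uptake and oxidation (84.8%). The share was 37.3% of the 969 genes over all lists. Without old HIIT 1 and 2 the medians of these 2 lists were 0.27 and 0.20.

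The genes of muscle protein breakdown were highest in the same 2 mice. Fbxo32, which encodes the ubiquitin ligase atrogin-1, read 6.61 and 5.67 in old HIIT 1 and 2 and 3.32 and 3.1 in old HIIT 3 and 4. The controls read 2.74, 2.97, 3.12 and 2.64, so that HIIT 4 lay inside their range. The difference was 1.81 ± 0.62 (limma adjusted p = 0.195). Trim63, which encodes the ligase MuRF1, read 8.48, 7.32, 5.62 and 5.14 after HIIT and between 4.57 and 5.45 in controls (1.65 ± 0.64), and its other probe differed by 1.87. Foxo1 itself read 3.78, 3.50, 2.33 and 2.40 after HIIT and between 2.09 and 2.47 in controls.

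All 26 measured atrophy ligase and FOXO genes had a positive difference, with a median of 0.59, and none was called. In 3 of the 26 every HIIT array was above every control array, where 4.34% of all features were. Klhl21, an adaptor of cullin ligases, was 1 of these, at 5.17, 4.33, 4.05 and 4.04 after HIIT and 3.44 to 3.97 in controls (0.79 ± 0.23, limma adjusted p = 0.133). Asb2, another ligase adaptor, differed by 0.69 ± 0.21, with control 3 at 5.28 above HIIT 3 and 4. Old HIIT 1 and 2 were the 2 highest of the 8 arrays for 17 of the 26 genes (65.4%), against 13.9% of the 969 genes over all lists, a count made after the values were seen. Without old HIIT 1 and 2 the median of the list was 0.16. The forkhead core GTAAACA, searched on both strands of the 250 bases before the start, was in 1 of 19 promoters of the list, that of Trim63 (5.26%), against 842 of 27025 promoters (3.12%).

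**Figure D3:**
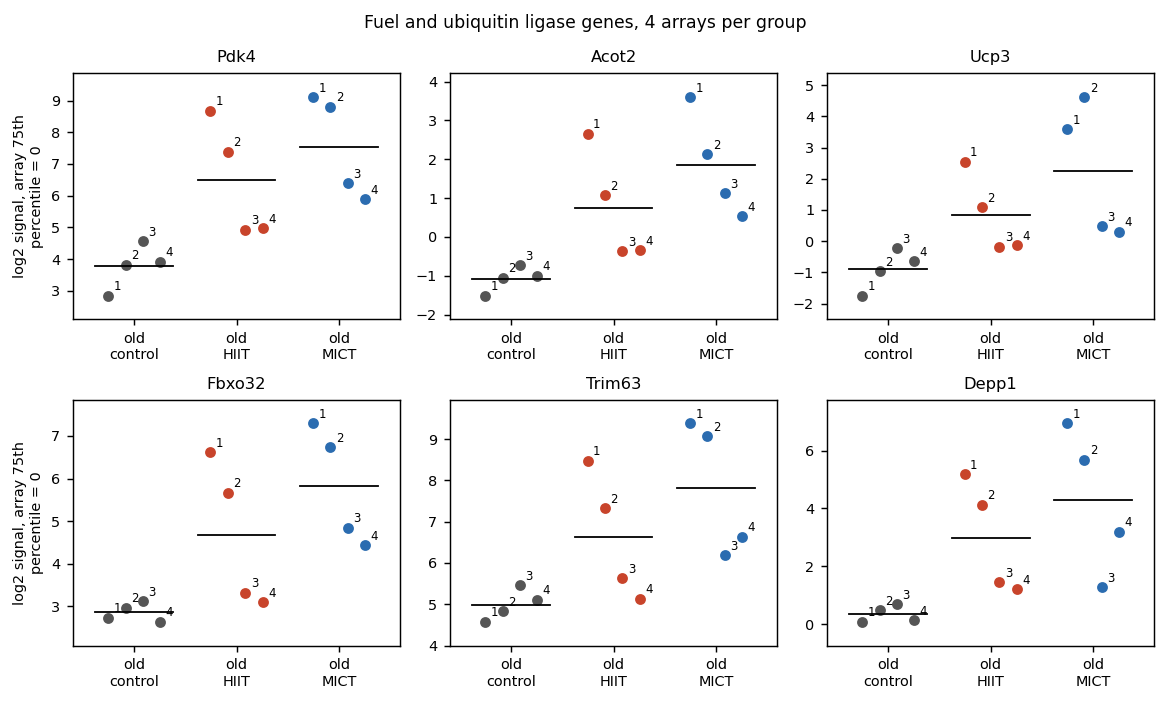
Levels of 3 fuel genes (top) and 3 genes of the FOXO and protein breakdown programme (bottom) as log2 processed signal, with each array's 75th percentile at 0. Points are single arrays with their replicate number in old control, old HIIT and old MICT muscle, and lines are means. Replicates 1 and 2 are the high ones in both trained groups, and old HIIT 3 and 4 lie close to the controls.

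Glucocorticoid-induced genes were split in the same way. The co-chaperone gene Fkbp5 read 5.67, 4.74, 3.26 and 2.95 after HIIT and between 2.81 and 3.28 in controls. Ddit4, an inhibitor of mTORC1, read 5.86, 5.07, 3.34 and 3.32 after HIIT and between 3.09 and 3.65 in controls, and without HIIT 1 and 2 its difference turned from 1.04 to -0.03. Sesn1, another mTORC1 inhibitor, read 5.50, 4.22, 2.68 and 2.51 against 2.43 to 2.69. The arrestin-domain gene Arrdc2 read 5.97, 5.03, 2.57 and 2.41 against 2.02 to 2.41, and Klf15 read 2.57, 1.99, 1.41 and 0.94 against 0.91 to 1.42. Of 25 glucocorticoid-induced genes 23 were positive, with a median of 0.44 (0.02 without HIIT 1 and 2). HIIT 1 and 2 were the highest pair for 17 of the 25 (68%), against 13.9% of the genes over all lists. None was called. The glutamine synthetase gene Glul read 6.87, 5.43, 4.37 and 3.90 after HIIT against 3.79 to 4.48 in controls.

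Depp1, a FOXO target in the autophagy list, read 5.18, 4.13, 1.45 and 1.22 after HIIT and 0.08, 0.47, 0.69 and 0.13 in controls. The groups did not overlap, and the difference of 2.65 ± 0.89 did not pass (limma adjusted p = 0.181). Ulk1, the kinase that starts autophagy, differed by 0.90 ± 0.36 and Tfeb, the master factor of lysosome genes, by 0.50 ± 0.19. Over the 33 autophagy and lysosome genes 24 were positive, but the median was 0.08, at the level of all features. Of 33 proteasome genes 31 were positive with a median of 0.16, and it was -0.02 without HIIT 1 and 2. Of 34 genes of mTORC1 and growth signalling 22 were positive (median 0.11), and Eif4ebp1, the translation repressor that mTORC1 switches off, differed by 0.86 ± 0.35. Myostatin (Mstn), the inhibitor of muscle growth, read 2.77, 3.23, 3.31 and 2.44 after HIIT and 2.37 to 2.90 in controls, and the difference of 0.28 ± 0.44 was within the spread.

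Stress and clock genes gave no call, and most of these lists had medians near that of all features. Of 29 antioxidant genes 23 were positive, with a median of 0.17, and Gclm, a subunit of the enzyme that starts glutathione synthesis, differed by 1.00 ± 0.34 without overlap of the groups. Of 20 clock genes 11 were positive (median 0.08). The clock gene Per1 differed by 0.62 ± 0.36, again highest in HIIT 1 and 2, at 4.72 and 3.82. Medians were 0.03 for 22 heat shock genes, -0.000336 for 25 genes of amino acid stress, -0.02 for 28 immediate early genes and -0.03 for 44 genes of ribosomes and translation, and no member was called. Phgdh, the entry enzyme of serine synthesis, read -0.17, 0.49, 0.83 and 0.93 after HIIT and 1.77, 1.53, 0.53 and 1.45 in controls (-0.80 ± 0.37), and its other probe differed by -0.81.

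Energy genes lay slightly to the high side. In the respiratory chain 70 of 71 genes had a positive difference, with a median of 0.24, and in the TCA cycle 23 of 23, with a median of 0.28, against 0.075 for all features. None was called. Uqcrc1, a core subunit of complex III, read 6.23, 5.78, 5.52 and 5.96 after HIIT and 5.10, 5.25, 5.76 and 5.46 in controls (0.48 ± 0.17). The complex I subunit gene Ndufs8 differed by 0.41 ± 0.15 and the TCA cycle gene Suclg1 by 0.38 ± 0.15 (limma adjusted p = 0.211 and 0.246). Old HIIT 1 was highest for 67 of the 71 respiratory genes (94.4%), against 37.3% of the genes over all lists. Old control 3 was the highest control by score. Without old controls 1 and 2 the medians of both lists were 0.06 and 0.07. Of 29 genes of mitochondrial biogenesis and exercise response 19 were positive (median 0.13, and -0.04 without old controls 1 and 2). Ppargc1a, the coactivator of mitochondrial biogenesis, read 2.66, 2.79, 2.82 and 2.66 after HIIT and 2.60, 2.43, 3.06 and 2.59 in controls, with a difference of 0.07 ± 0.20. Without old controls 1 and 2 it was -0.09.

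Glycolysis and glycogen genes were positive in 31 of 36 cases with a median of 0.19, and none was called. The insulin-responsive glucose transporter gene Slc2a4 differed by 0.18 ± 0.13 and the lactate dehydrogenase gene Ldhb by 0.72 ± 0.48. All 18 fast-twitch genes were positive with a median of 0.19, and 19 of 25 genes of excitation-contraction coupling with a median of 0.14. Without old controls 1 and 2 these medians were 0.01 and -0.04. The fast myosin light chain gene Mylpf read 4.26, 3.44, 3.85 and 3.71 after HIIT and 3.1, 3.09, 3.68 and 3.08 in controls (0.58 ± 0.19), control 3 standing above the other controls. The myosin heavy chains showed no difference beyond their spread. Myh4, of the fastest fibres, differed by 0.01 ± 0.25, Myh1 by 0.32 ± 0.35, Myh2 by 0.41 ± 0.39 and Myh7, of slow fibres, by 0.17 ± 0.87. Quantile scaling turned Myh4 to -0.14, and leaving out old controls 1 and 2 turned all 4 to negative values.

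Slow-twitch genes varied widely between mice, with Myh7 between 6.38 and 8.12 after HIIT and between 6.38 and 8.96 in controls. Of the 18 slow-twitch genes 11 were positive with a median of 0.19, which was -0.48 without old controls 1 and 2. The probe used for Tpm3, the slow tropomyosin, was lower on every HIIT array (-0.58 ± 0.28), while its other 2 probes differed by 0.38 each. Among 31 myogenic and denervation genes 21 were positive, with a median of 0.06. Leaving out old controls 1 and 2 gave -0.43, and leaving out old control 4 with old HIIT 1 gave 0.29. The myogenic factor gene Myf6 differed by 0.52 ± 0.18. Myog read 3.77 in old control 4 and between -1.56 and 1.08 in the other controls, and it was between -0.24 and 1.82 after HIIT. Satellite cell markers had a median of 0.03, with 5 of 7 positive, and of -0.43 without old controls 1 and 2.

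Interferon and antigen presentation genes had lower values after HIIT, and the difference lay mostly in 2 control mice. All 48 measured genes had a negative difference, from -1.31 to -0.13, with a median of -0.62, and none was called. In 8 of the 48 every HIIT array was below every control array, where 1.63% of all features were. Old controls 1 and 2 were the 2 highest of the 8 arrays for 45 of the 48 genes (93.8%), against 11.7% of the genes over all lists. Without these 2 controls the median was -0.12. The score of an array, its median deviation from the old control mean over the list, ran 0.83, 0.24, -0.60 and -0.48 over controls 1 to 4 and -0.81, -0.45, -0.50 and -0.73 over HIIT 1 to 4. B and plasma cell, T and NK cell and mast cell scores were also highest in old controls 1 and 2, and the part of these cells in the result was not tested.

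Interferon-stimulated genes are switched on by STAT and IRF factors that bind the interferon-stimulated response element. Its core, GAAA followed after any 2 bases by GAAA, was searched on both strands in the 250 bases before the start of each gene (RefSeq, GRCm38.p6), counting overlapping copies. It was found in 15 of the 37 genes of the list with a promoter entry (40.5%), against 828 of 27025 promoters overall (3.06%). The list was chosen for interferon response and antigen presentation, so this share describes the choice of genes and tests nothing in these arrays. The promoters of the 3 genes with the smallest p among those with a core in the last 150 bases are shown. All 3 were highest in old controls 1 and 2, as were 45 of the 48 measured genes. Each run is the 150 bases before the start, 5′ to 3′ on the gene's strand, with the core in capitals.
Oas1a, chr5:120907526-120907675, minus strand: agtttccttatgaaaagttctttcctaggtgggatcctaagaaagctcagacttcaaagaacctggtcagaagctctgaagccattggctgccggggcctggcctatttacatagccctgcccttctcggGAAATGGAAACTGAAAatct
Ifit1, chr19:34640739-34640888, plus strand: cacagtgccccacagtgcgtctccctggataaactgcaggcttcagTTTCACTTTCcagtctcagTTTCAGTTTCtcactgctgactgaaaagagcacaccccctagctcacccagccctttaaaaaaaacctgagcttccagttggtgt
Isg15, chr4:156200819-156200968, minus strand: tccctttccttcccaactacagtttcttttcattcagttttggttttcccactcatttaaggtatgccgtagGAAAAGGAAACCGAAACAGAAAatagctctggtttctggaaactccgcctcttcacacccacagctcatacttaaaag
The Oas1a window holds 2 overlapping cores, Ifit1 holds 2 separate cores on the opposite strand, and Isg15 holds 3 overlapping cores. A match describes the sequence and shows no binding.

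Oas1a, which makes the signal that starts viral RNA decay, read -0.13, 0.28, 0.28 and 0.21 after HIIT and 2.54, 1.81, 0.38 and 0.94 in controls. Each HIIT array lay below each control array, control 3 only slightly above them (-1.26 ± 0.47, limma adjusted p = 0.22). Isg15, a ubiquitin-like modifier, read between 0.89 and 1.32 after HIIT and 3.09, 2.42, 1.45 and 1.33 in controls (-0.95 ± 0.41). Ifit1, which blocks translation of foreign RNA, read -2.71 to -1.57 after HIIT and -0.09, -0.84, -1.49 and -1.95 in controls (-1.02 ± 0.43). Irf7, the factor that amplifies interferon production, read -3.88, -3.45, -3.52 and -3.87 after HIIT and -1.32, -2.15, -3.18 and -2.84 in controls (-1.31 ± 0.43, limma adjusted p = 0.173). Usp18, which removes Isg15, differed by -0.72 ± 0.26. Cd74, the chaperone of class II molecules, differed by -0.81 ± 0.40. The class I gene H2-K1 differed by -0.53 ± 0.29, and by 0.12 without old controls 1 and 2.

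Lymphocyte transcripts were the lowest group by median. All 10 B and plasma cell markers were negative with a median of -1.50, 12 of 15 T and NK cell markers with a median of -1.0, and Gzmb was the member called. Ms4a1, which encodes the B cell surface protein CD20, read -4.19, 0.75, -3.18 and -3.40 after HIIT and 2.83, 1.23, -1.10 and -3.13 in controls. Old HIIT 2 thus lay above old controls 3 and 4, and the difference of -2.46 ± 1.02 did not pass. The B cell factor Spib and the receptor component Cd79b were likewise highest in old controls 1 and 2 and old HIIT 2, with differences of -2.36 ± 0.83 and -2.10 ± 0.75. Cd2, a T cell adhesion gene, stood at 0.59 on the array of old HIIT 2, where the other HIIT arrays ran from -2.07 to -1.68. Ccl5, a chemokine that T cells make, read 1.22, 3.61, 0.47 and -0.25 after HIIT and 4.30, 3.81, 1.63 and 0.35 in controls (-1.26 ± 0.72). Without old controls 1 and 2 the median was 0.15 for the B list and 0.27 for the T list.

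Other immune lists leaned the same way or were carried by single mice. Of 6 genes of lymph node vessels and stroma 1 was positive, and the median was -0.85 with all arrays and 0.41 without old controls 1 and 2. All 8 mast cell genes were negative with a median of -0.64. Old controls 1 and 2 were the highest pair for all 8, against 11.7% of the genes over all lists. Without these 2 controls the median was 0.36. Of 13 macrophage markers 12 were negative with a median of -0.52. Old control 4 was highest for 11 of the 13 (84.6%), against 19.3% of the genes over all lists. The macrophage median was -0.41 without old control 4 and old HIIT 1, and ran from -0.79 to -0.29 with 1 array left out. Mrc1, the mannose receptor of resident macrophages, differed by -0.63 ± 0.26. Of 37 chemokine and cytokine genes 31 were negative with a median of -0.67, including Tnf, which was above background on 1 HIIT and 3 control arrays (-1.07 ± 0.43).

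Neutrophil and marrow genes did not separate the groups. The neutrophil calcium-binding protein gene S100a8 read 3.64, 1.21, -1.06 and -0.72 after HIIT and -0.74, -0.22, -1.59 and 4.89 in controls. Of the 12 genes of that list 8 were positive with a median of 0.23. Old control 4 was highest for 10 of the 12 (83.3%), against 19.3% of the genes over all lists. The median was -0.98 without HIIT 1 and 2, and it ran from -0.40 to 1.40 with 1 array left out. Retnlg, a neutrophil resistin-like gene, had the opposite sign (-1.81 ± 1.01).

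**Figure D4:**
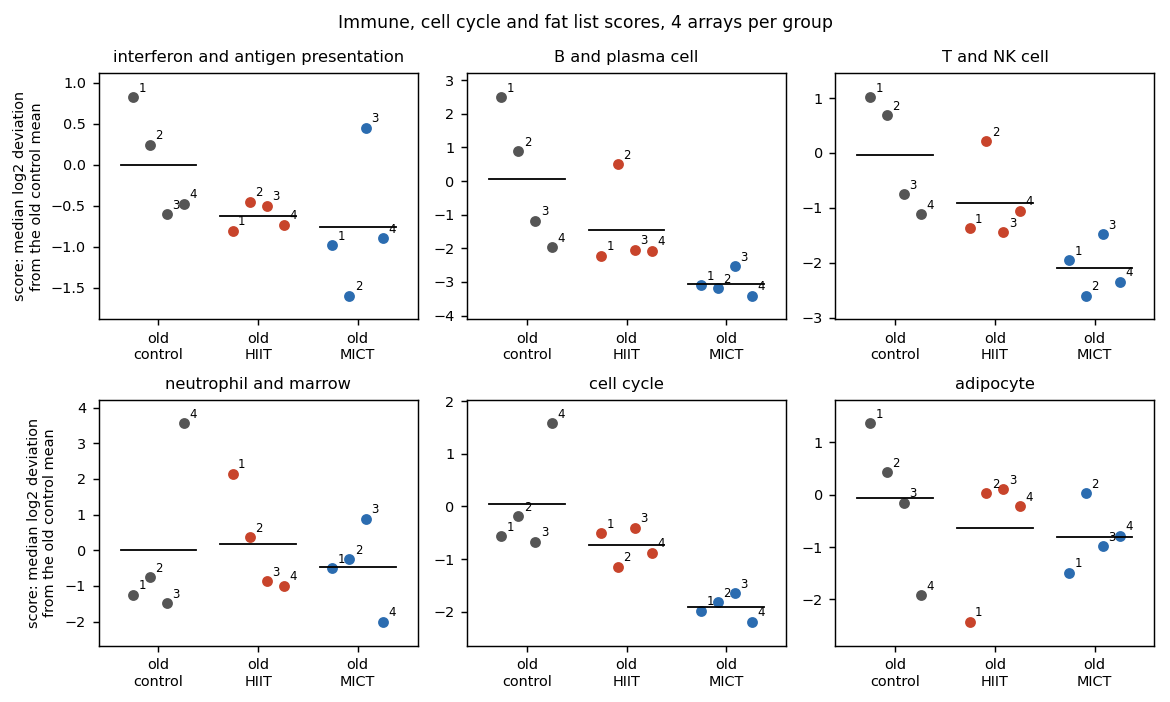
List scores by array, each the median log2 deviation of the list's genes from the old control mean, in old control, old HIIT and old MICT muscle. Numbers are replicates and lines are means. Old controls 1 and 2 and old HIIT 2 lead the B cell and T cell scores, old control 4 leads the neutrophil and cell cycle scores, and old HIIT 1 has the lowest adipocyte score.

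Cell division and matrix genes were lower on average, led by old control 4. Of 33 cell cycle genes 31 were negative with a median of -0.75. Old control 4 was the highest array for 31 of the 33 (93.9%), against 19.3% of the genes over all lists. The replication helicase gene Mcm3 read 1.18, 1.00, 1.01 and 0.57 after HIIT and 1.61, 1.25, 0.87 and 2.31 in controls. Without old control 4 and old HIIT 1 the median was -0.29. Of 42 collagen and matrix genes 31 were negative with a median of -0.33, and in 5 every HIIT array was below every control array, as in 1.63% of all features. Without old control 4 and old HIIT 1 the median was -0.03. Col3a1, of the fibrillar collagen of soft tissue, read 3.99, 4.11, 4.93 and 4.36 after HIIT and 4.50, 4.89, 5.27 and 6.95 in controls (-1.06 ± 0.55), and Col1a1 differed by -0.81 ± 0.57. The basement membrane gene Nid1 read between 3.28 and 3.68 after HIIT and between 3.75 and 4.00 in controls (-0.39 ± 0.13), and its dimmer probes differed by -0.04 and -0.20. Col14a1, a collagen of fibril surfaces, was lower on every HIIT array (-1.09 ± 0.39). None of these passed. Matrix enzymes had a median of -0.12 with 13 of 21 negative, and fibroblast markers a median of -0.38 with 7 of 10 negative, which was -0.03 without old control 4 and old HIIT 1. Of 7 bone genes 3 were positive (median -0.04).

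Lipid synthesis genes were negative in 19 of 24 cases, with a median of -0.36 that turned to 0.09 without old controls 1 and 2. Acly, which makes cytosolic acetyl-CoA, differed by -0.89 ± 0.32, with old control 1 highest at 5.19. Fdft1, the first committed enzyme of sterol synthesis, went the other way at 0.86 ± 0.28 without overlap, and its dim second probe differed by -0.13. Adipocyte markers had a median of -0.49 with 9 of 11 negative, and a median of 0.44 without old controls 1 and 2. Adipoq, the adiponectin gene, read 1.5, 3.96, 4.16 and 3.95 after HIIT and 5.53, 5.02, 3.89 and 2.25 in controls, so old HIIT 1 and old control 4 held the least.

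Tendon, nerve and skin markers stood on the high side. Tendon genes were positive in 10 of 11 cases with a median of 0.93. Fmod, a collagen-binding proteoglycan, read 1.71, 2.51, 3.23 and 3.31 after HIIT and -0.81, 1.12, 1.29 and 2.77 in controls (1.60 ± 0.56), and the related Kera differed by 1.73 ± 0.71. Schwann cell genes were positive in 8 of 11 cases with a median of 0.65. Their list scores overlapped, at 0.27, 0.10, 0.87 and 1.08 after HIIT and 0.41, -0.38, 0.40 and -0.31 in controls. In 1 of the 11, Sox10, every HIIT array was above every control array, where 4.34% of all features were. Sox10, the master factor of Schwann cells, read -0.33, -0.54, -0.03 and 0.48 after HIIT and -0.67, -1.05, -0.56 and -1.32 in controls, without overlap (0.80 ± 0.25, limma adjusted p = 0.152). The myelin gene Prx differed by 0.95 ± 0.38.

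All 10 keratinocyte markers were positive with a median of 1.30, but they varied widely between mice. Lor, a cornified envelope protein gene, read 0.61, 5.42, 5.66 and 7.61 after HIIT and -1.65, 7.83, 4.01 and 1.15 in controls (1.99 ± 2.24), and Krtdap differed by 1.34 ± 1.53. Endothelial (12 genes), smooth muscle and pericyte (9 genes) and erythroid (4 genes) lists had medians of 0.13, -0.10 and 0.14, with 8, 1 and 3 genes positive. None of the genes of these lists was called.

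**Figure D5:**
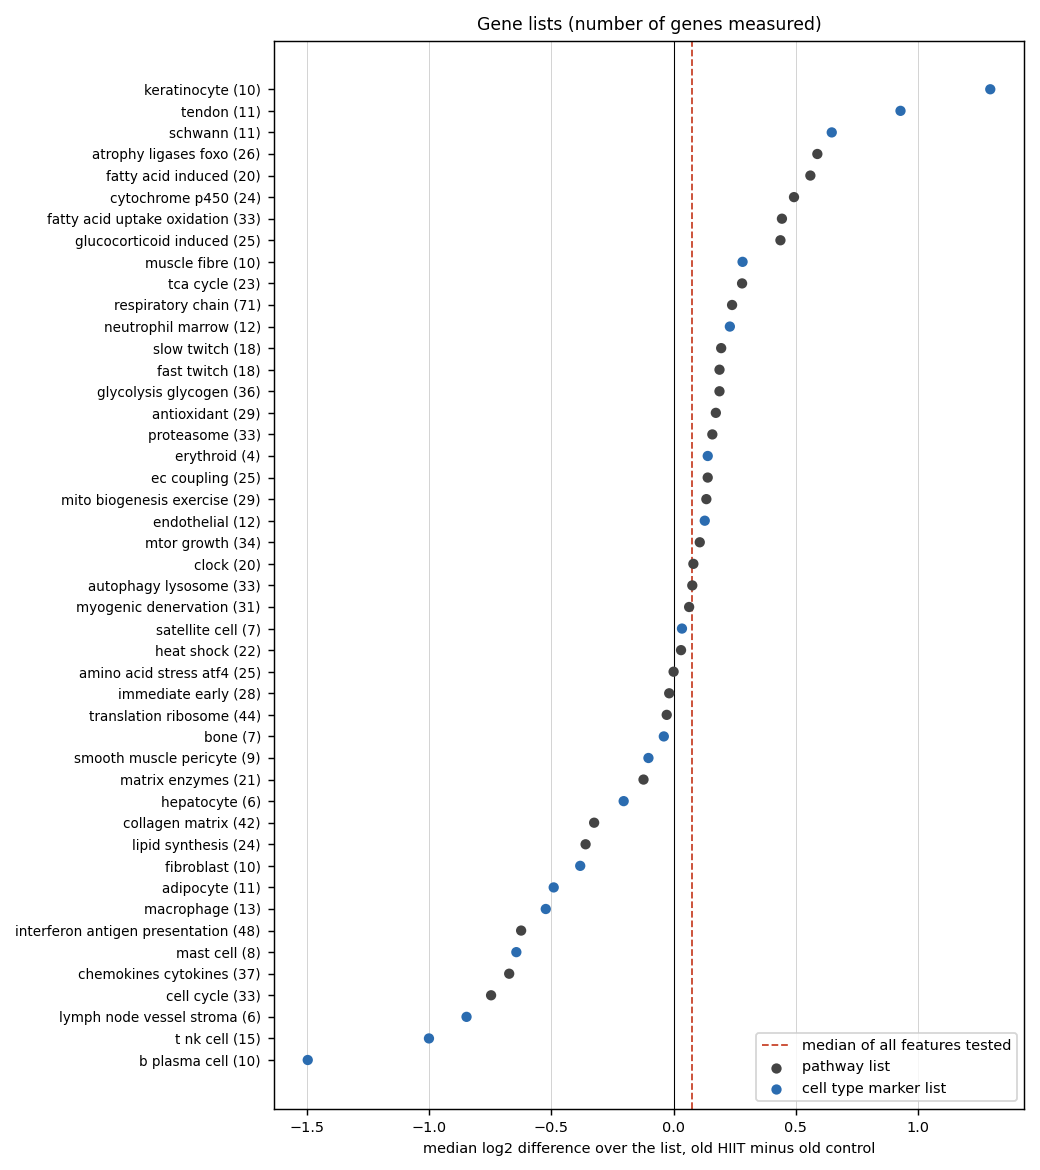
Median log2 difference between old HIIT and old control muscle for each of the 46 gene lists, with the number of genes measured. The dashed line marks the median of all 23707 features, 0.075. B cell markers lie lowest at -1.50 and T and NK cell markers next at -1.0, while keratinocyte and tendon markers lie highest at 1.30 and 0.93.

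Among the well-measured genes with the largest differences were 2 further patterns of single mice. Major urinary protein genes, which form a family of near-identical copies that the probes may not separate, were high in old controls 1 and 4. Mup19 read 0.36, -0.54, -0.13 and -0.51 after HIIT and 3.96, 0.40, 0.65 and 2.63 in controls (-2.12 ± 0.77), and Mup4 and Mup18 differed by -2.06 ± 0.73 and -2.13 ± 0.79. The protease inhibitor gene Serpina1a, a liver product with close copies, was also highest in old controls 1 and 4, at 2.17 and 0.79 (-1.65 ± 0.47, limma adjusted p = 0.126). Nhlh1, a neuronal transcription factor gene, reached 6.46 on the array of old HIIT 2, while the other HIIT mice ran from -1.40 to -1.23. Its second probe differed by 0.63.

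Old HIIT was compared with old MICT, whose mice ran without a break for 45 min at 13 m/min each day and whose arrays shared slide 3. No feature was called with limma (0 of 23707), 4045 (17.1%) had an unadjusted p under 0.05, and the smallest adjusted p was 0.0550. Counts stayed between 0 and 2 under the other settings tried. Old MICT muscle shares the old controls with the HIIT comparison, so the values are given side by side. Pdk4 read 9.11, 8.80, 6.40 and 5.89 in old MICT, and Fbxo32 7.29, 6.73, 4.85 and 4.43, and both were highest in replicates 1 and 2. Ddit4 read 8.54, 8.57, 3.73 and 4.93 in old MICT. Old HIIT minus old MICT was -1.06 for Pdk4, -1.15 for Fbxo32 and -2.05 for Ddit4. The median over the glucocorticoid list was -1.05, and over the atrophy list -0.48, against -0.09 for all features. The median over cell cycle genes was 1.03. Col3a1 read 0.86, 2.58, 2.60 and 3.48 in old MICT, below each old HIIT array. B cell and T cell medians were 1.62 and 0.77.

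The response to HIIT in old mice was then set against that in adult mice, whose HIIT and control arrays lay on slide 1. The difference of the 2 responses was called for 0 of 23707 features with limma, 2698 (11.4%) had an unadjusted p under 0.05, and the smallest adjusted p was 0.0685. For Pdk4 the old response of 2.70 stood against 0.32 in adults, a difference of 2.38 ± 1.08, and for Fbxo32 1.81 stood against -0.39, a difference of 2.19 ± 0.88. Neither passed after adjustment. For Gzmb no adult control or adult HIIT array was above background, and for Cyp2c67 2 adult control arrays and 1 adult HIIT array were, so no difference of responses is given for them. The interferon list had a median response of -0.62 in old and 0.03 in adult mice, and cell cycle genes -0.75 and 0.24. Adipocyte markers had -0.49 in old and 1.19 in adult mice. Their adult scores overlapped, from -2.17 to 0.54 after HIIT and from -2.89 to -1.83 in controls. Slow-twitch genes had 0.19 and 1.07, with adult scores from -0.28 to 2.15 after HIIT and from -0.33 to 1.56 in controls. Without old controls 1 and 2 the old medians of these 2 lists were 0.44 and -0.48.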

How the data were processed

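Gastrocnemius RNA was labelled with Cy3 and hybridised to Agilent one-colour mouse arrays. Per the file headers, the deposited scanner files hold Feature Extraction processed signals, an intensity per spot on a linear scale after the scanner software's background correction. The authors also deposited a normalized score per probe, rounded to 1 decimal, whose scale is not given in the sources used here, and it served as an alternative. The build named by the array's intervals is mm9.

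Control spots and spots with an outlier flag were left out, and 283 probes that then lacked a usable spot on some array were dropped. Each array's log2 processed signal had its 75th percentile subtracted, and probes well above background on at least 3 of 23 arrays were kept (31941). A gene symbol was represented by its probe with the highest mean, and features without a symbol by their name, 23707 in all. Symbols were updated through RefSeq accessions of GRCm38.p6, where 28123 of 29574 probes with such an accession matched. Promoters come from the same RefSeq build.

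Means of 6 groups were fitted with limma 3.58.1 in R 4.3.3 (eBayes with an intensity trend), and p-values were adjusted by Benjamini-Hochberg over all features. P-values measure the spread between the arrays of separate mice, shared over the 6 groups, and the number of arrays limits the precision. The fit was checked on simulated data. The members and the 46 gene lists were chosen with earlier results of these data known. Named genes are called genes with the largest rise or fall whose groups do not overlap, genes measured on all 8 arrays with the largest differences, the 3 members of each list with the smallest p, 40 fixed genes, and the called features without a symbol with the smallest p. The text gives those that the account needs, some are not reported here, and the promoters follow their own rule. Background correction, scaling, filters, the fit, the deposited score and left-out arrays were tried as alternatives. The slide could not be fitted as a block.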

Additional observations from a re-analysis of the deposited data

Results flagged for a closer look

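Of 280 groups of 4 arrays examined, 15 held 1 array far from the other 3 by Dixon's test, and chance gives about 1 in 20. Of the 15, 5 concerned old HIIT 2 and 3 each old HIIT 1 and old control 4.

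In levels, old control 3 stood above the other controls in Asb2 (5.277, others from 4.715 to 4.768) and Mylpf (3.678, others from 3.077 to 3.101). Old HIIT 2 stood below the other HIIT arrays in Myh4, at 8.749, and above them in Cd2, at 0.592, and Nhlh1, at 6.459. Old HIIT 1 was lowest in Kera, at -2.028, and in Adipoq, at 1.505. Old HIIT 4 was highest in Cyp2c67, at -1.387.

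In list scores, old control 4 was low in cytochrome P450 genes (-0.381) and high in neutrophil and marrow genes (3.560) and fibroblast genes (0.295). Old HIIT 2 was high in B and plasma cell genes, at 0.506, against -2.223 to -2.037 in the other HIIT mice, and in mast cell genes, at -0.345. Old HIIT 1 was low in adipocyte genes, at -2.428, and old HIIT 3 in endothelial genes, at -0.087.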

How the results depend on the processing

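The count of 103 features called between old HIIT and old control was 0 with normexp background, 0 with only the groups compared, 64 with quantile scaling, 225 with no intensity trend, 163 with array weights, 161 with all probes and 393 with the deposited score. It was 99, 81 and 89 with the percentile over probes above background, no filter and the filter by group. The replicate numbers did not pair old HIIT with old control mice (correlations of deviations 0.099, 0.200, -0.012 and -0.216). Pairing of old HIIT with old MICT was not tested. Glucocorticoid list scores were 1.23, 0.73, 0.11 and -0.15 in old HIIT 1 to 4. In old MICT 1 to 4 they were 2.64, 2.69, 0.35 and 0.49. The interferon list lacked this order, with old HIIT 2 and old MICT 3 highest in their groups. With the replicate number as a block the count between old HIIT and old control was 129. Leaving out 1 array gave 11 to 833: 11 without HIIT 1, 121 without HIIT 2, 56 without HIIT 3, 13 without HIIT 4, and 41, 27, 833 and 28 without controls 1, 2, 3 and 4. Added after seeing the data, features above background on all 8 arrays alone gave 8, and leaving out HIIT 1 and 2 gave 6. Leaving out controls 1 and 2 gave 12, control 4 and HIIT 1 gave 5, and controls 1 and 2 with HIIT 2 gave 6. All 103 features kept their sign in the 23 settings counted for them. Their groups did not overlap, so leaving out arrays could not turn a sign, and this is no sign of stability. Of the 103, 8 were called with each of the 8 arrays left out. Against old MICT the count of 0 was 1 with quantile scaling, the other percentile, the filter by group and the deposited score, 2 without controls 1 and 2 and HIIT 2, and 0 to 2 with 1 array left out. The difference of responses between ages gave 2 with the filter by group, 2 with no trend, 5 with array weights, 1 with the replicate block, 8 with the deposited score, 1 without controls 1 and 2, 1 without these and HIIT 2, and 0 to 3 with 1 array left out. Signs turned for uncalled genes. Without controls 1 and 2 the differences were -0.0864 for Ppargc1a, -0.21 for Myh4, -0.37 for Myh7, -0.40 for Myh1, -0.26 for Myh2, 0.12 for H2-K1, 0.27 for Ccl5, -0.88 for S100a8 and 0.32 for Adipoq. Without HIIT 2 as well they were -0.10 for Ppargc1a, -0.35 for Myh7, -0.20 for Myh1, -0.12 for Myh2, 0.11 for H2-K1, -1.03 for S100a8 and 0.13 for Adipoq. Without control 4 and HIIT 1 they were -0.10 for Myh4 and 0.57 for Myog. Without HIIT 1 and 2 they were -0.0277 for Ddit4 and -1.48 for S100a8. Myh4 was -0.14 with quantile scaling, -0.0296 with the other percentile and -0.075 with the deposited score, Myh7 -0.025 with that score, and with array weights Myog was 0.47 and S100a8 -0.30. With 1 array left out Myog ran from -0.80 to 0.98, Ppargc1a from -0.0113 to 0.20, S100a8 from -0.78 to 1.62, Myh1 from -0.0654 to 0.58, Myh4 from -0.15 to 0.29 and Myh7 from -0.14 to 0.72. The slide alternative was not run. The cause was not tested. Signal near background limits the called risers.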
